A study of Mus musculus with 4 samples.

Results

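The transcription factors of cardiac mesenchyme Tcf21, Tbx20, Tbx18, Gata4, Gata6, Wt1, Meox1, Prrx1, Twist1 and Osr1 were followed across sorted mesenchymal cells of the mouse heart. They were chosen by gene symbol, not by their values, and all 10 of 10 have 1 row each among the 28001 features that the 4 deposited libraries share. Droplet single-cell RNA sequencing was used, in which each captured RNA molecule is counted once through a unique molecular identifier (UMI). The Hic1 CreERT2 tdTomato+ cells came from undamaged hearts (3 pooled) and from hearts 7 days after LAD ligation (3 pooled), in which a main coronary artery, the left anterior descending, is tied off to model myocardial infarction. The Hic1 citrine+ cells came from 3 undamaged hearts marked by antibody hashtags, and the PDGFRa H2BEGFP+ cells (strain B6.129S4-Pdgfratm11(EGFP)Sor/J) from 2 undamaged and 2 ligated hearts, also hashed. All mice had a C57BL/6 background, and the labels used here give no age or sex. The Hic1 promoter drives the CreERT2 recombinase of the tdTomato mice, so tdTomato marks cells that had Hic1 activity when the recombinase was induced and their progeny. Every cell here was sorted on 1 of these reporters, so the libraries hold no unsorted heart cells.

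Kept cells were grouped into classes by markers fixed for each cell type, with the 10 genes and 80 related transcription factors left out of the clustering. Fibroblast-like cells numbered 2430 in the undamaged tdTomato library, 3138 after ligation, 10609 in the citrine library and 12567 in the PDGFRa library. Pericyte-like cells numbered 175, 826 and 221 in the first 3, and smooth-muscle-like cells 168 and 298 in the tdTomato libraries alone. In the fibroblast-like cells all 10 fibroblast markers were detected. Their summed level there lay between 48437 and 86949 CPM (UMIs scaled to the same total in every class). It was 2904.5 to 7122 CPM in the pericyte-like and smooth-muscle-like cells of the tdTomato libraries. The classes were named from these same marker lists, so the levels describe the classes and do not test their identity. The smooth-muscle-like cells held more of the pericyte markers (23116 CPM in undamaged and 22066 in ligated hearts) than of the smooth muscle markers (16526 and 17219 CPM), which stood at 2052 and 2171 CPM in the pericyte-like cells of the same libraries. The pericyte-like cells of the citrine library carried 23700 CPM of fibroblast markers beside 17160 CPM of pericyte markers. Library totals ran from 9885698 UMIs in the undamaged tdTomato library to 122716283 in the PDGFRa library, and median UMIs per fibroblast-like cell from 3656 to 8134. Libraries shared 0 to 36 cell barcodes in pairs. Each group is 1 library, so a ratio between libraries has no replicate check, its 95% interval covers counting error only, and no p-value is given for it. Only the hashtags of the citrine library tie cells to separate hearts of 1 condition.

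These proteins belong to several DNA-binding families. The T-box factors Tbx18 and Tbx20 pattern the epicardium, chambers and valves of the developing heart, and Wt1 and Tcf21 mark the epicardium and the cells that leave it to become fibroblasts and mural cells, the pericytes and smooth muscle that wrap vessels. Gata4 and Gata6 are zinc finger activators of many cardiac genes. Meox1 and Prrx1 are homeodomain factors that also act in activated fibroblasts, Twist1 is a basic helix-loop-helix (bHLH) factor of mesenchyme, and Osr1 is a zinc finger factor of lateral mesoderm and fibroblasts.

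Promoter windows are given for members that lay in opposite directions between the classes of the tdTomato libraries. Any part of these sequences in those directions was not tested. Of the 10 genes, 5 had an entry in the RefSeq promoter table (GRCm38.p6), and 3 are printed, Tcf21 as a gene higher in fibroblast-like cells and Tbx18 and Prrx1 as genes higher in pericyte-like cells. The windows take the 250 bases before the RefSeq start, 5′ to 3′ on the minus strand, less any bases inside the gene as GENCODE M21 annotates it. They are chr10:22820175-22820393 for Tcf21 (219 bases), chr9:87731261-87731510 for Tbx18 (250 bases) and chr1:163313711-163313900 for Prrx1 (190 bases).
Tcf21: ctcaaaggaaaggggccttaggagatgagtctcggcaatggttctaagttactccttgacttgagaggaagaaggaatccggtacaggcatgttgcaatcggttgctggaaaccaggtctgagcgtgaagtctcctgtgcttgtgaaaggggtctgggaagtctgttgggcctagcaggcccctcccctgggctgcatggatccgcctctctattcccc
Tbx18: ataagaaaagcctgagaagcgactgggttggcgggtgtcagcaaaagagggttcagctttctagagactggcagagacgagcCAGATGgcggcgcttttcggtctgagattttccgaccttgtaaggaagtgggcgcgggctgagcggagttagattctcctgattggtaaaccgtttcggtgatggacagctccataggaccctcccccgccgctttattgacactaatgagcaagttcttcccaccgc
Prrx1: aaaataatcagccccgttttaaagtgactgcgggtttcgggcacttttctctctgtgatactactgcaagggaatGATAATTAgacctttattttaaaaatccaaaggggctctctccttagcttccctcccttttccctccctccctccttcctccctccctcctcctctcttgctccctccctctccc
Capitals mark matches to 4 motifs searched on both strands of the whole 250 bases. These were the E-box CANNTG of bHLH factors, the GATA motif GATAA, the T-box motif GGTGTGA and the homeobox motif TAATTA. Tbx18 held 1 E-box, at position −168 from the start. Prrx1 held a GATA motif at −175 that overlaps a homeobox motif at −173. Tcf21 held 1 GATA motif at −30, in the bases that are not printed, and the Tbx20 and Twist1 windows held none of the 4. Among 32536 promoter windows of the same length, 66.19% held the E-box, 22.5% the GATA motif, 3.332% the T-box motif and 4.841% the homeobox motif. A match here is a description of letters and not of a bound site.

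Tcf21, Gata6, Osr1 and Meox1 were the members set higher in fibroblast-like than in mural cells, and they were so in both tdTomato libraries. Tcf21 (chr10:22817281-22820174) stood at 235 CPM in fibroblast-like, 74.4 in pericyte-like and 55.9 in smooth-muscle-like cells of undamaged hearts. That was 3.16-fold (95% interval 2.08 to 5.06) and 4.21-fold (2.80 to 6.66) higher in the fibroblast-like cells. After ligation the corresponding ratios were 2.87 (2.41 to 3.44) and 6.34 (4.25 to 9.91).

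Gata6 was close to absent from mural cells. It gave 632 UMIs in undamaged fibroblast-like cells (69.5 CPM), 2 in pericyte-like (6.76 CPM) and 1 in smooth-muscle-like cells (2.43 CPM), for ratios of 10.3 (2.84 to 85.1) and 28.6 (5.12 to 1133). After ligation 665 UMIs stood against 11 and 1, a ratio of 10.2 (5.65 to 20.5) to pericyte-like cells. Gata4, its family member (chr14:63198922-63271692), did not share this distribution. It lay at 20.6 CPM in fibroblast-like, 33.8 in pericyte-like and 26.7 in smooth-muscle-like cells, and the intervals of both ratios included 1.

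Osr1 (chr12:9570116-9581500) lay at 103 CPM in undamaged fibroblast-like cells and at 20.3 CPM (6 UMIs) in pericyte-like cells, a ratio of 5.09 (2.33 to 13.9). No UMI of it was counted in smooth-muscle-like cells, so the fibroblast-like level was at least 14.2-fold higher against a floor of 3 UMIs over the class. Meox1 (chr11:101877510-101894374) gave 1531 UMIs in undamaged fibroblast-like cells, 0 in pericyte-like and 1 in smooth-muscle-like cells. Its fibroblast-like level of 168.5 CPM was at least 16.6-fold higher than in pericyte-like cells, against the same floor. After ligation 21 UMIs of Meox1 appeared in pericyte-like cells (8.57 CPM), against 166.3 CPM in fibroblast-like cells, a ratio of 19.4 (12.7 to 31.4). At 2000 UMIs per cell it was seen in 8 of 535 pericyte-like cells of ligated hearts (1.495%).

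Tbx18 and Prrx1 lay in the other direction. Tbx18 (chr9:87702800-87731260) stood at 22.3 CPM in undamaged fibroblast-like cells, 60.9 in pericyte-like and 31.6 in smooth-muscle-like cells, so that pericyte-like cells held 2.72 times the fibroblast-like level (1.58 to 4.42). After ligation the excess in pericyte-like cells was 3.14-fold (2.60 to 3.78), and in smooth-muscle-like cells 2.00-fold (1.43 to 2.74). Prrx1 (chr1:163245119-163313710) stood at 141 CPM in undamaged fibroblast-like, 227 in pericyte-like and 204 in smooth-muscle-like cells. The level in pericyte-like cells was 1.61-fold higher than in fibroblast-like cells (1.24 to 2.06) in undamaged hearts and 2.43-fold higher (2.23 to 2.65) after ligation.

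Tbx20 (chr9:24718138-24774303) separated the mural classes from each other. Its level was 171 CPM in fibroblast-like and 183 in pericyte-like cells of undamaged hearts, a ratio of 0.936 (0.714 to 1.25), and 48.6 CPM in smooth-muscle-like cells, 3.52-fold lower than in fibroblast-like cells (2.27 to 5.78). Twist1 (chr12:33957671-33959829) gave 58, 3 and 5 UMIs and Wt1 (chr2:105126529-105173616) 10, 0 and 0 in the same order, too few to place the classes. In all, 9 members entered the undamaged comparison of fibroblast-like with pericyte-like cells by holding at least 20 UMIs. Of these 4 were at least 1.5-fold higher and 4 at least 1.5-fold lower, where 20% and 35.4% of the 10240 genes entered were. Against smooth-muscle-like cells 5 of 9 were higher and 1 lower, where 29.6% and 25% of 10414 genes were. The members' median log2 ratio was −0.10 against −0.30 for all genes in the former comparison and 1.82 against 0.06 in the latter. After ligation 4 of 9 members were higher and 2 lower against pericyte-like cells, where 18.8% and 27.4% of 11925 genes were, and 5 of 9 higher and 1 lower against smooth-muscle-like cells, where 28% and 23.1% of 11386 genes were. Scaling by the median of ratios shifted all fibroblast-to-pericyte ratios of undamaged hearts by 0.43 on the log2 scale. Under it Tbx20 turned from −0.10 to 0.34 and the Prrx1 value of −0.25 no longer reached 1.5-fold. Gata4 and Twist1 no longer reached it either, so that Tbx18 alone among the members stayed at least 1.5-fold lower in fibroblast-like cells.

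**Figure D1:**
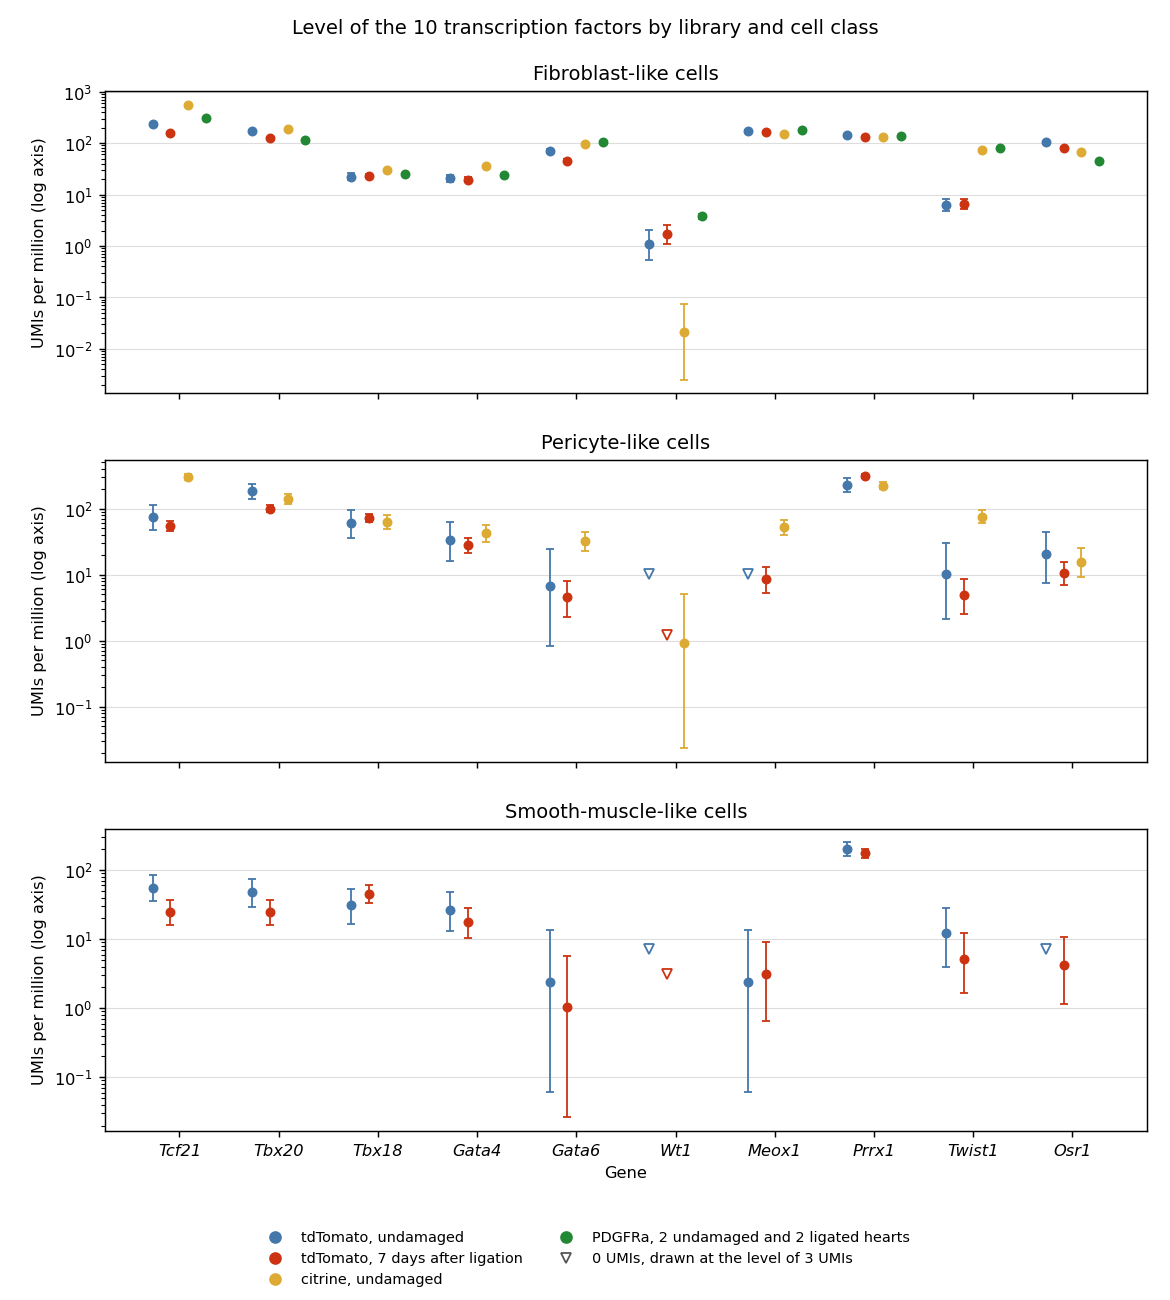
Level of each gene in fibroblast-like, pericyte-like and smooth-muscle-like cells (3 panels, CPM on a log axis), with 1 point per library and exact 95% Poisson intervals; open triangles are classes with 0 UMIs, drawn at the level that 3 UMIs would give. In undamaged tdTomato hearts Gata6 lies at 69.5 CPM in the fibroblast-like panel and at 6.76 and 2.43 CPM in the mural panels, while Prrx1 stays between 141 and 227 CPM in all 3.

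The share of cells with a UMI was also taken at equal depth, where few pericyte-like cells were left. After each cell was thinned to 2000 UMIs, 2213 fibroblast-like, 27 pericyte-like and 122 smooth-muscle-like cells of undamaged tdTomato hearts remained. Tcf21 was seen in 34.43% of these fibroblast-like cells (exact Clopper-Pearson 95% interval 32.45 to 36.45%), 14.81% of the pericyte-like (4.189 to 33.73%) and 9.836% of the smooth-muscle-like cells (5.186 to 16.55%). The fibroblast-like and pericyte-like intervals overlap, so these shares do not settle the contrast of those classes. Gata6 and Meox1 were seen in 12.02% and 16.31% of fibroblast-like cells and in 0 of 122 smooth-muscle-like cells, which allows a share of cells with a UMI at this depth of up to 2.459% (3 cells of 122) and sets no limit on cells that express these genes at a lower level. Prrx1 was seen in 23.18% of fibroblast-like and 36.89% of smooth-muscle-like cells. Of the fibroblast-like cells, 78.99% carried a UMI of at least 1 of the 10 genes. The 13 endothelial-like cells of this library, a class that should lack most of these factors, gave 2 UMIs of Meox1 and 3 of Wt1 and none of the other 8, at a median of 1899 UMIs per cell.

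The hashed citrine hearts allowed the contrast of classes to be tested over hearts. UMIs were summed per heart and class and fitted with edgeR's quasi-likelihood test with heart as a block. Of the 9 members tested, 6 passed an adjusted p of 0.05, where 1149 of 11446 genes (10%) did. Tcf21, Tbx20, Gata6, Meox1 and Osr1 were higher and Prrx1 was lower in fibroblast-like cells, where 5.92% and 4.11% of all genes were called in those directions.

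Tcf21 stood at 616, 557 and 551 CPM in the fibroblast-like cells of hearts 1, 2 and 3, and at 344, 314 and 114 CPM in their pericyte-like cells. Each heart had the higher value in its fibroblast-like cells, and the log2 fold change was 1.46 ± 0.26 (SE, n = 3 hearts, adjusted p = 1.17e-06 by edgeR). The pericyte-like value of heart 3 rests on 9 UMIs of Tcf21 in 14 cells. Gata6 stood at 90.1, 105 and 88.8 CPM against 38.3, 26.6 and 12.7 CPM, a log2 fold change of 2.21 ± 0.41 (edgeR adjusted p = 2.4e-06). Osr1 stood at 79.7, 68.0 and 51.2 CPM against 19.1, 16.6 and 12.7 CPM, a log2 fold change of 2.27 ± 0.47 (edgeR adjusted p = 3.98e-05). Both genes were higher in fibroblast-like cells in 3 of 3 hearts. The pericyte-like values of hearts 1 and 3 rest on 2 and 1 UMIs of Gata6 and on 1 and 1 UMIs of Osr1. They lie below the level that 3 UMIs would give, 57.4 CPM in heart 1 and 38.1 CPM in heart 3. Without heart 2, which holds 188 of the pericyte-like cells beside 14 in each of the other hearts, the adjusted p of Osr1 was 0.0969.

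Meox1 stood at 166, 142 and 182 CPM in fibroblast-like cells and at 0, 49.9 and 76.2 CPM in pericyte-like cells, a log2 fold change of 1.93 ± 0.34 (edgeR adjusted p = 6.34e-07). Every heart had the lower value in its pericyte-like cells. In heart 1 these gave 0 UMIs of Meox1, where 3 UMIs would stand at 57.4 CPM. Tbx20 stood at 206, 171 and 170 CPM against 38.3, 156 and 88.9 CPM, a log2 fold change of 0.94 ± 0.31 (edgeR adjusted p = 0.0252). This call rested on details of the fit: the adjusted p was 0.0531 with another normalization, 0.343 with DESeq2, 0.0595 without the heart block, 0.497 and 0.146 without heart 1 and without heart 3, and 0.149 with thinned cells.

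Prrx1 was lower in fibroblast-like cells of each heart, at 118.5, 129 and 121 CPM, than in pericyte-like cells, at 440, 178.5 and 559 CPM. Its log2 fold change was −1.17 ± 0.27 (edgeR adjusted p = 0.000271), and the edgeR adjusted p was 0.159 without heart 3. With cells thinned to 2000 UMIs the log2 fold change of Prrx1 was −0.72 ± 0.40 and did not pass (edgeR adjusted p = 0.352), so that 4 members were called higher and 0 lower at equal depth. Tbx18 stood at 24.6, 31.25 and 27.6 CPM against 57.4, 68.7 and 25.4 CPM and did not pass the test (log2 fold change −0.71 ± 0.41, edgeR adjusted p = 0.37), although without the heart block its edgeR adjusted p was 0.0132. Gata4 (−0.23 ± 0.41, edgeR adjusted p = 0.889) and Twist1 (0.49 ± 0.35, edgeR adjusted p = 0.546) did not pass either. The pericyte-like cells of this library held 23700 CPM of fibroblast markers, and the part of this in these values was not tested.

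**Figure D2:**
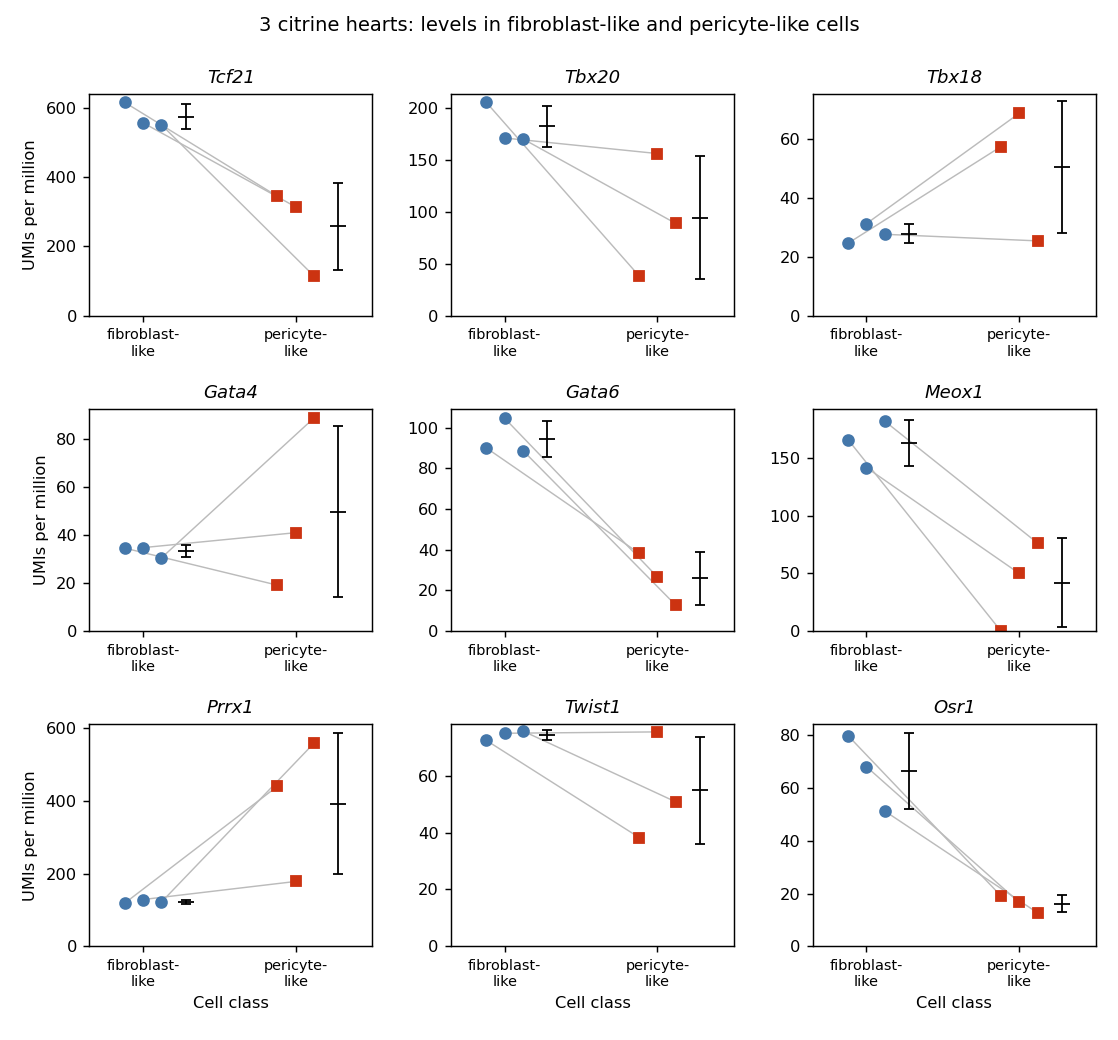
Levels of 9 genes (CPM, from 0) in fibroblast-like and pericyte-like cells of the 3 citrine hearts; grey lines join the classes of a heart, and black bars give the mean ± SD over hearts. Gata6 and Osr1 drop in every heart, from 88.8 to 105 CPM down to 12.7 to 38.3 CPM for Gata6, while the lines of Gata4 run in different directions. In hearts 1 and 3 the pericyte-like points of Gata6 and Osr1 rest on 1 or 2 UMIs each.

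Of the 80 related factors, 61 were tested in the same fit. In fibroblast-like cells 11 were called higher and 15 lower, where 5.92% and 4.11% of all 11446 genes were. Inhibitors of bHLH factors, the Id and Hes/Hey proteins that bind bHLH partners or block their targets, were called lower in 5 of 8 and higher in 1 of 8. Id4 (log2 fold change −3.38 ± 0.49) and Hey2 (−3.21 ± 0.58) were among the lowest, as were the T-box repressor Tbx2 (−3.24 ± 0.51), the nuclear receptors Nr2f2 (−2.71 ± 0.27) and Nr2f1 (−2.48 ± 0.39) and the forkhead factor Foxs1 (−2.40 ± 0.34). On the higher side stood the zinc finger factors Bnc2 (2.85 ± 0.99), Klf4 (2.29 ± 0.28) and Zeb1 (1.75 ± 0.33), the bHLH factor Hand2 (2.13 ± 0.44), Sox9 (1.92 ± 0.34) and Prrx2, whose fitted value depends on the prior count because pericyte-like cells gave none of it. In the undamaged tdTomato library Tbx3 (101 CPM against 2.42) and Tbx2 (74.4 against 2.53) were 41.9-fold and 29.4-fold higher in pericyte-like than in fibroblast-like cells, and Nr2f1 20.9-fold. Hand2 gave 584 UMIs in fibroblast-like and 0 in pericyte-like cells of that library, at least 6.34-fold higher against the floor of 3 UMIs, and Sox9 was 8.16-fold higher in fibroblast-like cells (3.49 to 25.2).

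After LAD ligation the fibroblast-like cells of the tdTomato libraries held less Tcf21, Tbx20, Gata6 and Osr1 at equal UMI totals, and nearly the same Meox1, Tbx18, Gata4 and Twist1. Tcf21 was 235 CPM in undamaged and 158 CPM in ligated hearts, a ratio of 0.673 (0.634 to 0.714). Tbx20 was 171 and 124 CPM (0.726, 0.678 to 0.778), Gata6 69.5 and 45.7 CPM (0.657, 0.589 to 0.734) and Osr1 103 and 79.7 CPM (0.772, 0.708 to 0.842). These 4 intervals lie below 1. Gata6 alone among them reached 1.5-fold, at 1.52-fold lower, and Tcf21 was just short of it, at 1.49-fold.

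Meox1 differed by less than its counting error, at 168.5 and 166.3 CPM, a ratio of 0.987 (0.926 to 1.05). Tbx18 stood at 22.3 and 22.9 CPM (1.025, 0.858 to 1.23), Gata4 at 20.6 and 19.5 CPM (0.949, 0.786 to 1.15) and Twist1 at 6.38 and 6.599 CPM (1.03, 0.739 to 1.46). Prrx1 was 141 and 129 CPM (0.915, 0.852 to 0.983). Wt1, with 10 and 25 UMIs, had a ratio of 1.56 whose interval ran from 0.724 to 3.64. So 1 of 10 members was at least 1.5-fold higher and 1 of 10 lower, where 8.17% and 11.6% of 12326 genes were. The members' median log2 ratio was −0.10, beside −0.05 for all genes.

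The sum over a class follows its clusters, and the activated-like cluster of ligated hearts (393 cells) had a median of 7931 UMIs per cell, against 3204 to 4905 in the other fibroblast-like clusters. Averaged per cell in place of summed, 0 of 10 members reached 1.5-fold. Without the activated-like clusters of both libraries 1 member did. After thinning, Tcf21 was seen in 34.43% of undamaged and 26.62% of ligated fibroblast-like cells (25.04 to 28.24%), Gata6 in 12.02% and 8.561% (7.584 to 9.619%), and Osr1 in 16.45% and 12.49% (11.33 to 13.73%). Twist1 was seen in 1.401% and 1.432%.

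**Figure D3:**
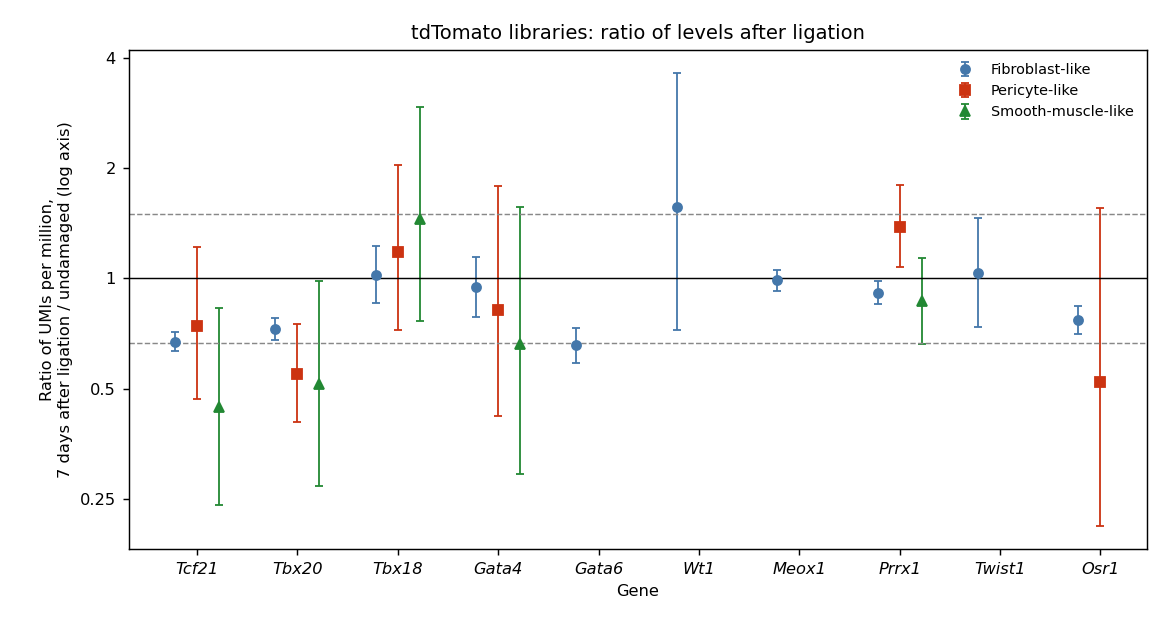
Ratio of the level 7 days after ligation to the level in undamaged tdTomato hearts (log axis), with exact 95% intervals for counting error, in the 3 classes. Dashed lines mark 1.5-fold, and genes with under 20 UMIs in the 2 sums are not drawn. Meox1 in pericyte-like cells, with 0 UMIs in undamaged hearts, is not drawn either. Tcf21, Tbx20, Gata6 and Osr1 lie below 1 in fibroblast-like cells, Tbx20 also in both mural classes, and Prrx1 lies above 1 in pericyte-like cells only.

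In pericyte-like cells Tbx20 was 183 CPM in undamaged and 100 CPM in ligated hearts, a ratio of 0.548 (0.407 to 0.750). Prrx1 was 227 CPM in undamaged and 313 CPM in ligated hearts, a ratio of 1.38 (1.08 to 1.80). The pericyte-like cells of ligated hearts fell into clusters that differed in Prrx1. A cluster of 270 cells led by Rgs16, a regulator of G-protein signalling, beside pericyte markers held 469.7 CPM of Prrx1, while the larger pericyte-like cluster of 513 cells held 193 CPM. Tcf21 (74.4 and 55.1 CPM), Tbx18 (60.9 and 71.85 CPM) and Gata4 (33.8 and 27.8 CPM) had intervals that included 1. Osr1, at 20.3 and 10.6 CPM, rested on 6 and 26 UMIs (0.523, 0.211 to 1.555). Of the 6 members that entered, 0 were 1.5-fold higher and 2 lower, where 17.5% and 19.2% of 8878 genes were. Meox1, with 0 UMIs in undamaged and 21 in ligated hearts, did not enter, as its ratio against the floor did not reach 1.5-fold. The undamaged pericyte-like cells were shallow, at a median of 1584 UMIs against 2380.5 after ligation, and with cells of at least 2000 UMIs only 27 of them were left and 4 members passed.

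In smooth-muscle-like cells Tcf21 was 55.9 CPM in undamaged and 24.97 CPM in ligated hearts (a ratio of 0.447, 0.242 to 0.829) and Tbx20 48.6 and 24.97 CPM (a ratio of 0.514, 0.272 to 0.981). These rest on 20 to 24 UMIs in each class. The summed fibroblast markers of these cells were 3982 CPM in undamaged and 2904.5 CPM in ligated hearts, and their part in the Tcf21 and Tbx20 values was not tested. Gata4 was 26.7 and 17.7 CPM (0.662, 0.293 to 1.56), Tbx18 31.6 and 45.8 CPM (1.45, 0.767 to 2.935) and Prrx1 204 and 177 CPM (0.867, 0.664 to 1.14). Of the 5 members that entered, 0 were at least 1.5-fold higher and 3 lower, where 16% and 15.3% of 6534 genes were. When each cell was classed by its own markers, which left 73 cells in the smaller group, 0 members passed.

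Among the related factors in fibroblast-like cells, 63 of 80 entered and 9 were 1.5-fold higher and 8 lower after ligation, beside the 8.17% and 11.6% of all genes, with a median log2 ratio of −0.11. The count of lower genes is near that share. The largest ratios were those of Scx, the bHLH factor of tendon (2.13 against 0.330 CPM, a ratio of 6.455, 2.01 to 33), and Runx1 (33.1 against 7.70 CPM, 4.30-fold, 3.34 to 5.61). The smallest were those of the T-box factor Tbx5 (5 against 32 UMIs, a ratio of 0.0976), Id4 (0.1598), Id1 (31.8 against 126.5 CPM, a ratio of 0.251, 0.225 to 0.2798), the corepressor Tle4 (0.359), Tbx3 (0.369) and the Notch effector Hes1 (0.370, 0.304 to 0.4495). Of the 8 inhibitors of bHLH factors 4 were lower, where 11.6% of all genes were, and 0 higher, with a median log2 ratio of −0.56. Hes1 and Tle4 were lower also in pericyte-like cells (ratios of 0.276 and 0.416) and in smooth-muscle-like cells (0.168 and 0.143), as was Id1 in the latter (0.471). Sox4 stood 5.57-fold higher in smooth-muscle-like cells after ligation (2.05 to 21.2), on 52 against 4 UMIs.

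Within the fibroblast-like cells Meox1 differed widely between clusters. In undamaged tdTomato hearts its level ran from 13.7 to 667 CPM over 11 clusters (median 69.9), with the highest value in the cluster led by Wif1, a secreted Wnt inhibitor, and 541 CPM in the activated-like cluster. These clusters, of 141 and 291 cells, were defined without the 10 genes. After ligation the activated-like cluster held 395 CPM of Meox1. It gave 56.21% of the 2375 Meox1 UMIs of the 7 fibroblast-like clusters from 12.57% of their cells, with cells of the cycling cluster left out. In the citrine library the highest cluster was again of the Wif1 type, at 409 CPM, with 465, 431 and 406 CPM in hearts 1, 2 and 3. In the PDGFRa library an unnamed cluster (303 CPM), the Wif1-type cluster (295 CPM) and the activated-like cluster (283 CPM) lay close together. The lowest in the citrine library was a Sca1-high cluster led by progenitor genes such as Pi16, at 26.04 CPM.

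Tbx20 was also highest in Wif1-type clusters of the undamaged tdTomato (463 CPM), citrine (371 CPM) and PDGFRa (199.6 CPM) libraries. After ligation, where no cluster took that name, its range was 96.1 to 156 CPM and the activated-like cluster held the highest value. Tcf21 was low in 2 of the 3 activated-like clusters. It lay at 76.99 CPM in the activated-like cluster of ligated tdTomato hearts, against 149 to 212 CPM in the other 6 fibroblast-like clusters. The activated-like cluster of the PDGFRa library held 94.3 CPM, against a median of 348 CPM over the 12 clusters of that library. The activated-like cluster of undamaged hearts did not share this, with 203 CPM in a range of 114 to 338 CPM.

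Osr1 took its highest tdTomato values in clusters led by Inmt and Rbp4, at 197 CPM in undamaged and 134 CPM in ligated hearts. Prrx1 was even among fibroblast-like clusters, at 117 to 191 CPM in undamaged tdTomato hearts, and its highest value was in the Sca1-high cluster there, in ligated hearts (156 CPM), in the citrine (196 CPM) and in the PDGFRa library (181.0 CPM). Gata4 reached 49.5 CPM and Tbx18 41.8 CPM at most among the fibroblast-like clusters of the 4 libraries. Twist1 reached 117 CPM at most, apart from a cycling cluster of 31 PDGFRa cells at 137 CPM.

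**Figure D4:**
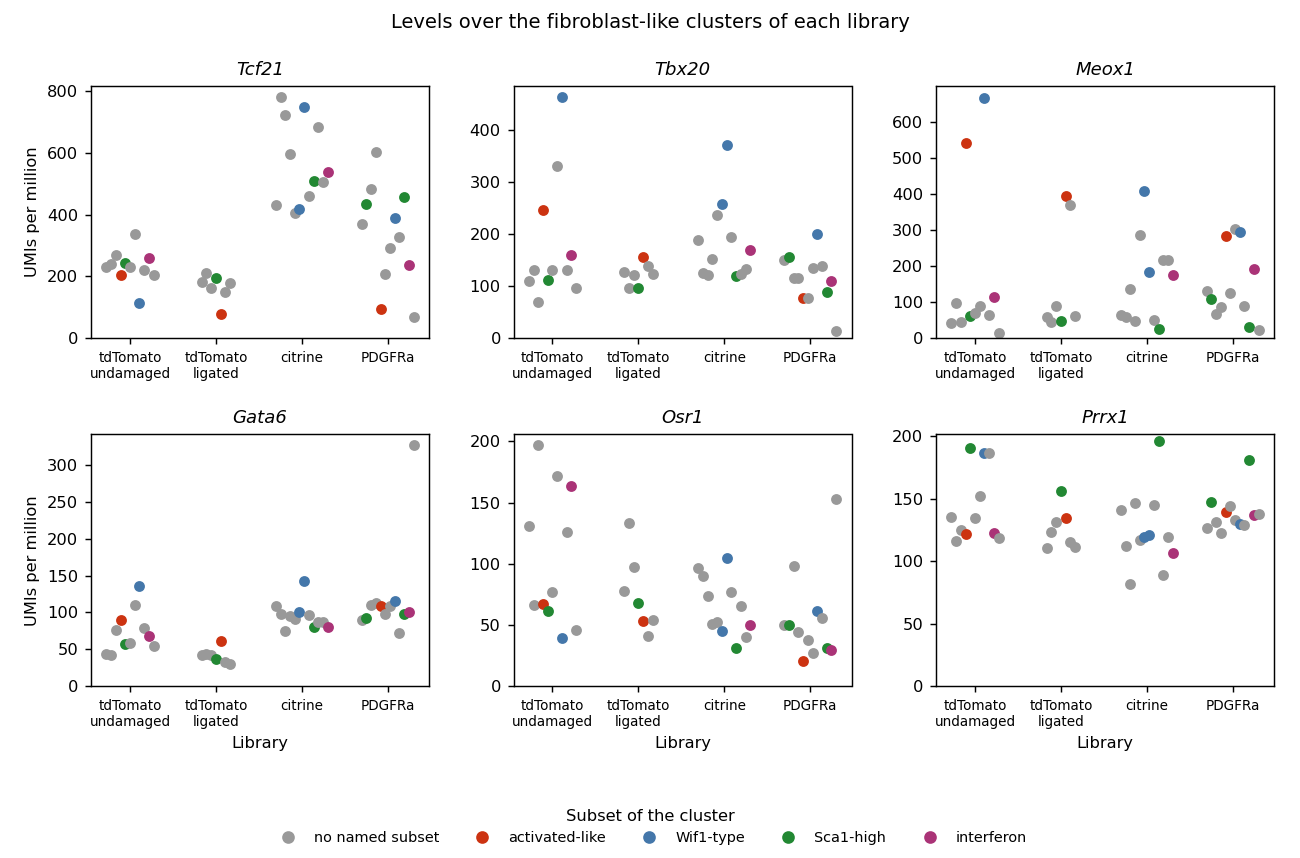
Level of 6 genes (CPM, from 0) in each fibroblast-like cluster of the 4 libraries, with 1 point per cluster, coloured by subset. Meox1 runs from 13.7 to 667 CPM in undamaged tdTomato hearts, the lowest Tcf21 of the ligated tdTomato library is in its activated-like cluster, and Prrx1 spans only 117 to 191 CPM in undamaged tdTomato hearts.

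Between reporters, undamaged fibroblast-like cells of the citrine library differed from those of the tdTomato library most in Twist1 among the 9 members with at least 20 UMIs. Wt1, below that minimum, gave 2 UMIs in citrine and 10 in tdTomato cells. Twist1 was 74.1 CPM in citrine cells and 6.38 CPM in tdTomato cells, an 11.6-fold difference (8.97 to 15.3). Only 83 of 14070 genes (0.590%), Twist1 included, were higher in citrine cells by as much or more. The single hearts lay at 72.4, 74.9 and 75.7 CPM (mean 74.3 ± 1.72 SD, n = 3), and the PDGFRa hearts between 68.0 and 85.45 CPM, so both hashed libraries were high. In pericyte-like cells Twist1 was 75.3 CPM in the citrine library, against 10.1 CPM in the undamaged tdTomato library, which rests on 3 UMIs. The pericyte-like cells of the citrine library held 23700 CPM of fibroblast markers, and the part of this in their Twist1 level was not tested. Reporter, mouse line, hashing, library and sequencing depth cannot be told apart in this difference, and only the hashed libraries carry a Cell Ranger version in their headers.

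Tcf21 was 551 CPM in citrine and 235 CPM in tdTomato cells, 2.34-fold higher (2.24 to 2.445), with hearts at 616, 557 and 551 CPM. Gata4 was 35.4 and 20.6 CPM (1.72-fold, 1.48 to 2.00), Gata6 97.1 and 69.5 CPM (1.40-fold, 1.29 to 1.52) and Tbx18 30.1 and 22.3 CPM (1.35-fold, 1.17 to 1.56). Osr1 was lower in citrine cells, at 66.9 against 103 CPM (0.647, 0.604 to 0.694), and its hearts spread from 51.2 to 79.7 CPM. Tbx20, Meox1 and Prrx1 were within 1.12-fold of each other in the 2 reporters. Of the 9 members that entered, 3 were at least 1.5-fold higher and 1 lower in citrine cells, where 23.4% and 17.1% of 14070 genes were.

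Hic1 itself, whose promoter drives the recombinase of the tdTomato mice, was 301 CPM in citrine and 20.7 CPM in tdTomato fibroblast-like cells. Of the 11 partners of the members, 9 entered, and 8 of these were 1.5-fold higher in citrine cells, where 23.4% of 14070 genes were. Among the 8 were the Gata cofactor Zfpm1 (3.68 against 0.330 CPM) and Basp1 (65.6 against 10.1 CPM), a cofactor of Wt1. Id1, Id2 and Id3 were lower in citrine cells, with ratios of 0.270, 0.241 and 0.384, whereas Hes1 was 9.04-fold higher.

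The PDGFRa library, which mixes undamaged and ligated hearts, was set beside the citrine library without a test. Its hashtags are not tied to a condition by the labels, so its 4 hearts are given as values only. Tcf21 was 313 CPM over the library (0.568 of the citrine level), and 281, 276, 429 and 328.5 CPM in hearts 1 to 4. Every one of these lay below the citrine hearts and above the 235 CPM of the undamaged tdTomato library. Tbx20 was 116 CPM (0.620), with hearts at 96.4, 103, 152 and 154 CPM, and Osr1 44.2 CPM (0.660), with hearts at 31.3, 41.1, 60.6 and 62.6 CPM. The ranges of Tbx20 did not overlap between the libraries (citrine 170 to 206 CPM), and those of Osr1 did. The share of all genes whose heart ranges lie apart between these libraries was not counted. A gap is therefore not shown to be particular to a member.

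Gata6 (96.1 to 109 CPM over hearts), Meox1 (145 to 217 CPM), Prrx1 (112.5 to 147 CPM), Tbx18 (21.1 to 29.75 CPM) and Gata4 (21.7 to 29.6 CPM) had library levels within 1.5-fold of the citrine library. Their ranges over hearts overlapped those of the citrine hearts except for Gata4, whose citrine hearts lay at 30.4 to 34.8 CPM. Here too the share over all genes was not counted. Of the 10 members, 1 was at least 1.5-fold higher and 3 were lower in the PDGFRa library, where 12.3% and 18.9% of 15203 genes were.

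**Figure D5:**
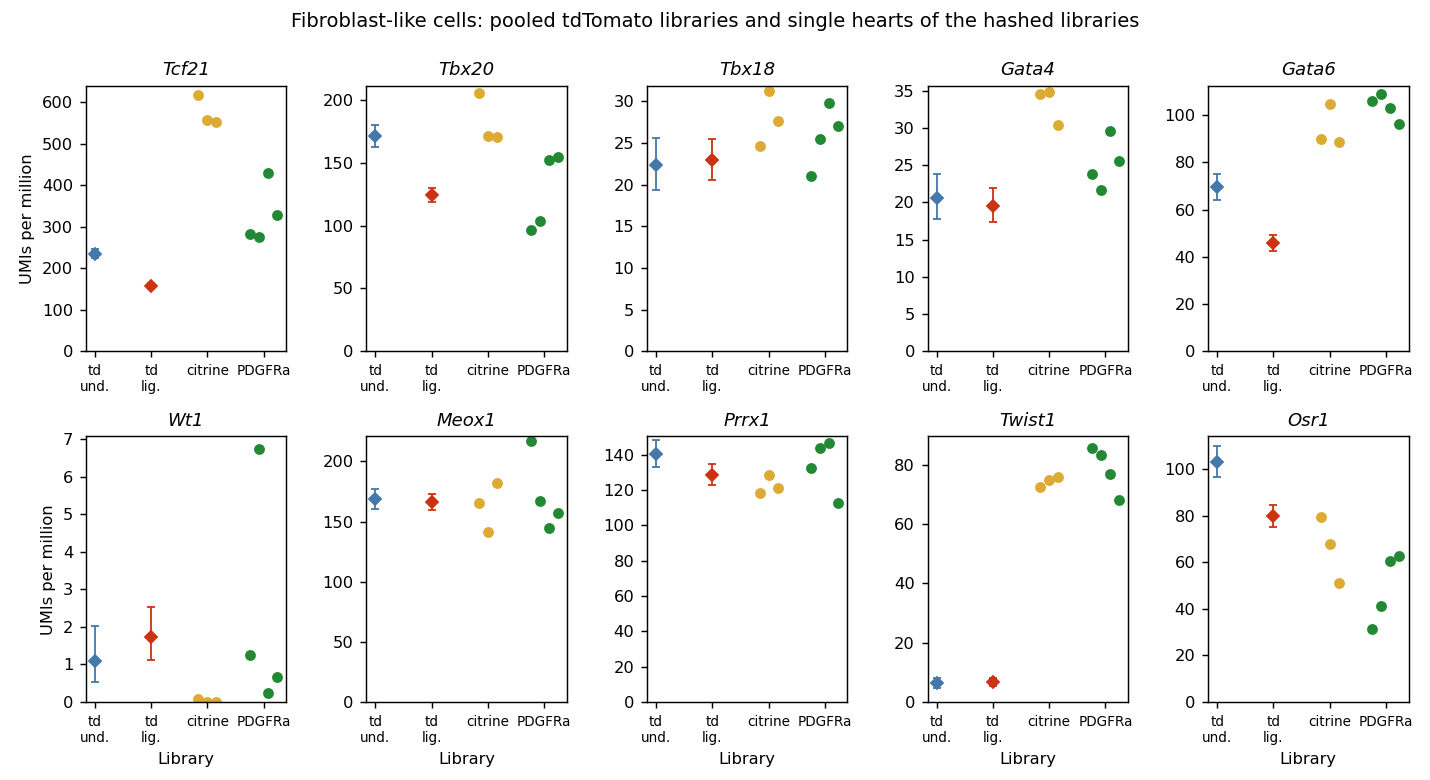
Level of each gene in fibroblast-like cells (CPM, from 0); diamonds are the pooled tdTomato libraries ("und." undamaged, "lig." 7 days after ligation) with exact 95% Poisson intervals, and circles are single hearts of the citrine (n = 3) and PDGFRa (n = 4) libraries. Twist1 lies at 6.38 and 6.599 CPM in the tdTomato libraries and between 68.0 and 85.45 CPM in the 7 hashed hearts.

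Wt1, which marks the epicardium and is switched on again there after injury, gave few UMIs in 3 of the 4 libraries. Fibroblast-like cells gave 10, 25, 2 and 452 UMIs in the tdTomato libraries before and after ligation and in the citrine and PDGFRa libraries, in that order. The ratio of the PDGFRa to the citrine level was 179 (49.2 to 1480), on 2 citrine UMIs. In the PDGFRa library 9 of 15203 genes (0.0592%), Wt1 included, were higher by as much or more. In the PDGFRa library 311 of the 452 UMIs lay in a cluster of 65 cells led by Saa3, Serpinb2 and Tnfrsf11b, which held 229 CPM of Wt1. That cluster also held the highest Gata6 (327 CPM) and Osr1 (153 CPM) of the library and the lowest Tcf21 (67.8 CPM) and Tbx20 (14.01 CPM) among its 12 fibroblast-like clusters. Of its cells assigned to a heart, 45 carried hashtag 2, and heart 2 had the highest level of Wt1, 6.73 CPM against 1.245, 0.244 and 0.665 CPM in hearts 1, 3 and 4.

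Epicardial markers were checked beside these cells. Of 77 PDGFRa cells with at least 2 Wt1 UMIs, 26 (33.77%) had UMIs of 3 or more of the 10 epicardial markers, and the summed level of the list was 287 CPM in them against 51.8 CPM in cells without Wt1. In ligated tdTomato hearts 20 of the 25 UMIs lay in the activated-like cluster, and the 5 fibroblast-like cells with 2 or more UMIs of Wt1 gave 0 CPM of the epicardial list. The 4 with 1 UMI of Wt1 gave 50.1 CPM of it, all from Aldh1a2, beside 44.0 CPM in fibroblast-like cells without Wt1. In undamaged tdTomato hearts the 9 fibroblast-like cells with 1 or more UMIs of Wt1 gave 0 CPM of that list.

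The 10 genes did not form 1 pattern across the 51 clusters of at least 30 cells in the 4 libraries. Pearson correlations of log2(CPM + 10), less the mean of each library, were highest for Gata6 with Osr1 (r = 0.80), Tcf21 with Osr1 (0.64) and Tbx18 with Prrx1 (0.64), and lowest for Prrx1 with Osr1 (−0.56), Tbx18 with Gata6 (−0.54) and Tcf21 with Prrx1 (−0.52). Clusters of a library share its cells' handling and depth, so these values describe the clusters and carry no test. Among 8291 genes, those most like each member were Slc43a3 (r = 0.92), Sqrdl (0.90) and Gsn (0.90) for Tcf21, and Tns1 (0.84), Nr2f1 (0.80) and Dtx3 (0.80) for Tbx18. For Gata6 they were Serpinf1 (0.89), Ptgis (0.88) and Mmp23 (0.88), for Meox1 Frzb (0.90), Pmepa1 (0.87) and Fxyd6 (0.87), and for Osr1 Trf (0.90), Mgst1 (0.90) and Ctsl (0.87). For Wt1 they were Wnt4 (0.88), Maf (0.78) and Mpp6 (0.77), for Prrx1 Prkacb (0.76), Thy1 (0.74) and Pde5a (0.70), and for Tbx20 Lrrk1 (0.71), Sec62 (0.71) and Ltbp4 (0.70). Gata4 had 1 gene at r of at least 0.7, Dgka (0.71), and Twist1 had none.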

How the data were processed

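Cells sorted from mouse hearts were profiled in 4 droplet libraries, and the values used are UMI counts per gene and cell as deposited by the authors. Cell Ranger, the mm10 genome and Seurat 2.1 are named in the submitters' processing notes, and Cell Ranger 3.0.2 stands in the headers of the hashed libraries, per the file headers. Whether counting used the strand is not given in the sources used here, so UMIs of Gata6 and of 1010001N08Rik on the opposite strand (632 and 69 UMIs in undamaged tdTomato fibroblast-like cells) may not be told apart. The members and gene lists were chosen with earlier results of these data known. All 10 members and all 80 related genes were found by symbol.

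Barcodes under 500 genes, under 1000 UMIs or over 10% mitochondrial UMIs were left out, and the other cells kept (2786, 4263, 10838 and 12567 in the tdTomato libraries before and after ligation, the citrine library and the PDGFRa library). In the hashed libraries cells went to a heart where the leading hashtag had at least 10 UMIs and 3 times the next, and cells of more than 1 hashtag (975 citrine, 1836 PDGFRa) stayed out of the values per heart. Scrublet marked 3, 39, 0 and 1 cells, which cannot serve as a doublet call in the hashed libraries. Clusters came from 2000 variable genes, 30 components, 20 neighbours and Leiden resolution 1 (scanpy 1.11.5, Python 3.11.15), without the members and related genes. A cluster was named from at least 3 of the fixed markers.

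Counts were summed per class and divided by the class total (CPM). Ratios between libraries or classes carry exact conditional 95% intervals, levels exact Poisson and shares exact Clopper-Pearson intervals, all covering counting error only, with a floor of 3 UMIs. A gene entered with at least 20 UMIs in the 2 sums and was called at 1.5-fold. The log2 ratios in lists are those of the plain ratios, with the floor of 3 UMIs in place of a sum that held no UMI. Sums per heart were tested with edgeR 4.0.16 (R 4.3.3; quasi-likelihood, heart as a block because each heart gives both classes, Benjamini-Hochberg adjustment). On simulated data for this comparison over 11446 genes, 64 of 93 genes changed 4-fold and 9 of 96 changed 2-fold were recovered, with 8 false calls. The simulation gave every gene the same fixed dispersion and no difference between hearts, so these counts need not hold for the real hearts. Every member was named, and of the related genes at most the 6 farthest in each direction, if called over hearts or, between 2 sums, at least 2-fold apart with an interval that left out 1. Alternatives were another scaling, DESeq2 1.42.0, other filters, clusterings, folds and hashtag limits, cells thinned to 2000 UMIs, and leaving out each heart.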

Additional observations from a re-analysis of the deposited data

Results flagged for a closer look

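Prrx1 differed in opposite directions between classes after LAD ligation. Its log2 ratio of ligated to undamaged tdTomato hearts was 0.47 in pericyte-like cells and −0.13 in fibroblast-like cells, and both counting intervals left out 1 as a ratio. The difference between the classes was not tested, since each condition is 1 library.

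A cluster of 8 epicardial-like cells in the citrine library entered no comparison. It held 342.3 CPM of Wt1, 287.5 CPM of Gata6 and 260.2 CPM of Tbx18, against 0.021, 97.1 and 30.1 CPM in the fibroblast-like cells of that library. Meox1 and Prrx1 gave 0 UMIs there.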

How the results depend on the processing

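After ligation 2 members passed 1.5-fold in fibroblast-like cells; 1 did with median-of-ratios scaling, 0 with means per cell, 0 at 2-fold and 1 without activated-like clusters. In pericyte-like cells 2 passed; 4 did at 2000 UMIs per cell or more (27 cells), 4 at Leiden resolution 0.5, where pericyte-like and smooth-muscle-like cells of undamaged hearts merge, 1 at resolution 2 and 0 at 2-fold. In smooth-muscle-like cells 3 passed; 0 did when cells were classed by their own markers and 1 at 2-fold, and resolution 0.5 gave no value. Of the 4 passing between citrine and tdTomato, 2 did at 2-fold. Of the 4 passing between the PDGFRa and citrine libraries, 2 did with median-of-ratios scaling, 2 with means per cell, 1 at 2-fold and 2 without activated-like clusters. The counts of fibroblast-like against mural cells stayed within 1.5 times 26 under the alternatives run. Among log2 ratios that had passed 1.5-fold, those of Wt1 in fibroblast-like cells after ligation (−0.47 with means per cell) and of Osr1 in pericyte-like cells (1.33 at resolution 0.5) turned. Changes of sign in ratios short of 1.5-fold, such as that of Tbx20 given above, were not counted. Of 615 member ratios, 541 stayed within their counting interval.

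Over citrine hearts 1149 genes were called by edgeR with the heart block, which pairs the classes of a heart, 1965 with no replicate block and 566 by DESeq2; leaving out 1 heart gave 623 (without heart 2) to 935 genes (without heart 3), and 4 to 5 of the 6 members. With cells thinned to 2000 UMIs 868 genes and 4 members were called, without Tbx20 and Prrx1. Gata4 turned to 0.09 with the leading hashtag at 5 times the next, and ran from −0.55 to 0.12 when 1 heart was left out. The cause of these shifts was not tested. The fit without called doublets was not run, since Scrublet called 0 in that library. Low counts widen the intervals of Twist1 and Wt1 in the tdTomato libraries (58 and 10 UMIs in undamaged fibroblast-like cells) and of the members in the 175 undamaged pericyte-like cells.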

Other observations

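The 4 PDGFRa hearts, which the labels tie to no condition, also differed in Postn, a matrix gene of activated fibroblasts. It stood at 3431.5, 3814.7, 219 and 258.7 CPM in the fibroblast-like cells of hearts 1, 2, 3 and 4, so that hearts 1 and 2 lay apart from hearts 3 and 4. Postn was chosen after its values were seen.

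Among related factors in fibroblast-like cells, Runx1 stood at 161.3 CPM in the PDGFRa and 6.69 CPM in the citrine library, and Hic1 at 29.9 and 301.2 CPM.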
